A study of Homo sapiens with 24 samples.

Results

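The MYC transcription factor and the genes that build ribosomes were followed across 24 RNA-seq libraries of lung cancer cells with and without forced expression of SIRT6. The set was chosen by name, with earlier results of these data known. It holds 34 genes of the 59385 gene symbols in the count table. It comprises MYC, its relatives MYCN and MYCL, its partner MAX, and 30 genes of ribosome production, CAD of pyrimidine synthesis among them. All 34 were found in the table, and 33 were abundant enough to test, MYCN being the exception. Both cell lines, A549 and H1299, derive from human lung carcinomas and had been stably transduced by lentivirus and grown in RPMI1640 with serum. Each line carried FLAG-tagged wild-type SIRT6 (WT), a triple acetylation-deficient mutant (K3R), a triple acetylation-mimetic mutant (K3Q) or the empty vector (Ctr). That gave 8 groups of 3 libraries. Libraries 1-1 and 1-2 are biological replicate 1, from batches 1 and 2, and library 2-2 is biological replicate 2, from batch 2. Values for 3 libraries are given below in that order. The empty vector cells also carry SIRT6 transcripts of their own, and the labels do not say whether a transduced population was clonal. Nor do they say whether libraries 1-1 and 1-2 share a culture, so the spread behind each p-value may be partly technical.

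MYC binds DNA as a pair with MAX, chiefly at the E-box, and is known for raising the production of ribosomes in proliferating cells. In the nucleolus RNA polymerase I transcribes the ribosomal RNA precursor, with UBTF, RRN3 and TCOF1 among its factors, and small nucleolar ribonucleoproteins (snoRNPs) modify the precursor. Separate groups of proteins then cleave and fold it into the small and the large subunit. SIRT6 is a chromatin deacylase that has been described in mouse cells as a corepressor of MYC at ribosomal genes.

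The canonical E-box, CACGTG, reads the same on both strands. It was searched for in RefSeq promoter windows (GRCh38.p14) that run from 250 bases before to 50 bases after each annotated start. Windows were held for 27 of the 34 genes, not for MYC, NOP58, BOP1, RRS1, RRP12, NOLC1 and TCOF1. The motif was present in at least 1 window of 9 of these 27 genes (33.3%) and of 1876 of 18369 genes of the count table (10.2%). The variant CACGCG, searched on both strands, was present in 6 of 27 (22.2%) and in 3106 of 18369 (16.9%), and a match of the variant cannot overlap one of the E-box. FBL and NOP14 held both. A match is a run of letters and not evidence of binding. The stretches below, in capitals where the E-box lies, belong to the 4 E-box genes with the lowest adjusted p in any comparison. They lie at chr4:4290068-4290097, minus strand for LYAR, chr4:2963374-2963403, minus strand for NOP14, chr4:109815781-109815810, plus strand for GAR1 and chr12:101280083-101280112, plus strand for UTP20, all read 5′ to 3′ along the gene.
LYAR: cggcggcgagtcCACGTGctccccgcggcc
NOP14: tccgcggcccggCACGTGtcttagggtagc
GAR1: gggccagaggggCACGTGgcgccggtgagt
UTP20: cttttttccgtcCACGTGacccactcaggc

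CAD, NOB1 and NOC4L held neither motif in their windows. They are the ribosome production genes that passed between constructs in the edgeR fits of all libraries with batch as a term. Bases outside the windows were not searched, so an E-box further downstream would have been missed. RRP9, FBL and PES1 held the E-box and passed in H1299 K3Q against WT with the replicate block. RRP9 also passed there without the block by DESeq2, with no low-count filter and without K3Q 2-2. GAR1 held it too and passed with that block in H1299 WT against Ctr. No window was held for BOP1, RRP12, NOLC1 and TCOF1, which also passed with the block. No contrast by motif is therefore drawn. The 100 bases before the starts of CAD, NOB1 and NOC4L are shown with no capitals. They lie at chr2:27217269-27217368, plus strand for CAD, chr16:69754927-69755026, minus strand for NOB1 and chr12:132144357-132144456, plus strand for NOC4L. CpG pairs numbered 15 in the CAD stretch, 9 in that of NOB1 and 16 in that of NOC4L.
CAD: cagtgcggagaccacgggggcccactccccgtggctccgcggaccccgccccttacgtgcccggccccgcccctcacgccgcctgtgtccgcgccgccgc
NOB1: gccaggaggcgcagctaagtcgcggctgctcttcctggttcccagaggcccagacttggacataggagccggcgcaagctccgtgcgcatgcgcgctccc
NOC4L: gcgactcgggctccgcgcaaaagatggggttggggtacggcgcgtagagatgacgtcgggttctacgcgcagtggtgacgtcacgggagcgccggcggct

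A549 libraries held 16434492 to 19412274 counts, and H1299 libraries 14943189 to 22856407. Levels are depth-scaled counts (CPM), computed with TMM factors over all 24 libraries, and they are not divided by gene length. SIRT6 ran from 1460 to 3454 CPM in A549 construct libraries and from 23.9 to 33.2 CPM in A549 Ctr. In H1299 it was 10298 to 14062 CPM with K3Q, 2306 to 6319 CPM with WT, 2588 to 5677 CPM with K3R and 32.1 to 42.6 CPM with Ctr. The amount of SIRT6 and the mutation therefore cannot be told apart when H1299 K3Q is set against WT. The epithelial keratins KRT8 and KRT18 reached at least 235 CPM in every library, while EPCAM and KRT7 were at most 0.314 and 3.09 CPM in H1299, whose VIM was 811 to 1288 CPM. CDKN2A was at most 1.40 CPM in A549 and at least 96.8 CPM in H1299. The leukocyte markers PTPRC, CD3E and CD68 stayed at or under 0.347 CPM. SFTPC, SFTPB and NKX2-1, markers of lung alveolar cells, stayed at or under 0.664 CPM in both lines. Libraries 1-2 and 2-2 of A549 K3Q were nearly alike, with a chi-square per degree of freedom of 2.60 over genes, against 16.1 to 71.5 in the 23 other replicate pairs. They differed by more than sampling noise and were kept as 2 libraries. Whether they come from 1 sample was not tested, and if so n is 2 for A549 K3Q. Summed as 1 library, they gave 0 members called in each comparison of A549 K3Q, as they did apart.

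MYC was lowest in H1299 cells with WT and highest with K3Q, and no library of the WT group reached a library of the K3Q or Ctr group. It measured 151, 159 and 142 CPM with WT, 174, 172 and 196 CPM with K3R, 251, 228 and 309.9 CPM with K3Q and 227, 194 and 284 CPM with Ctr. The 3 K3R libraries lay above the 3 WT libraries and below the 3 K3Q libraries, and 1 of them lay above the lowest Ctr library. The K3Q and Ctr libraries overlapped. In bulk RNA, fewer cells expressing a gene and less RNA per cell cannot be told apart.

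**Figure D1:**
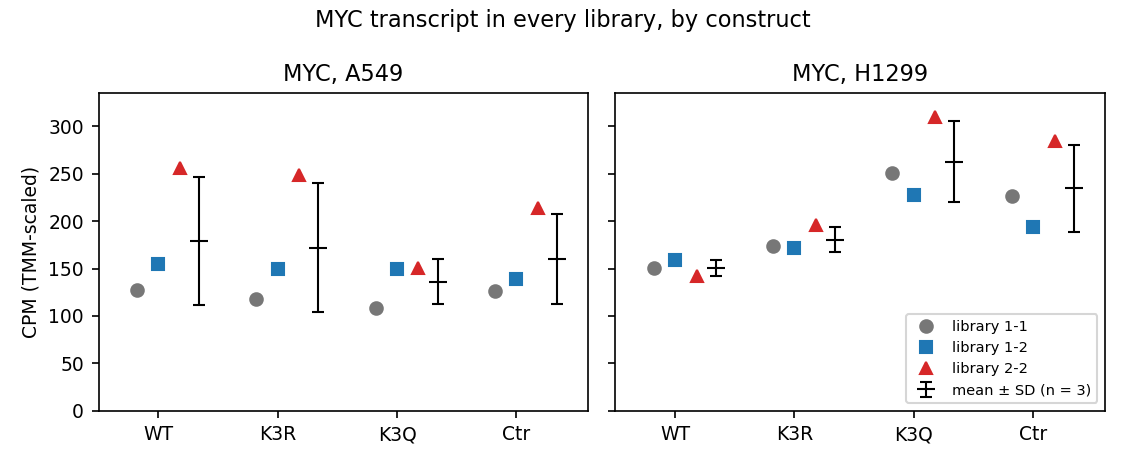
MYC in CPM (TMM-scaled) on the y axis for each library of A549 (left) and H1299 (right), grouped by construct on the x axis, with symbols for libraries 1-1, 1-2 and 2-2 and a bar for the mean ± SD of 3 libraries. In H1299 the 3 WT libraries sit between 142 and 159 CPM, below all K3Q and Ctr libraries, and in A549 library 2-2 is the highest of each construct.

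MYC averaged 151 ± 8.20 CPM with WT and 235 ± 45.9 CPM with Ctr in H1299 (SD, n = 3 each). It fell with WT by 0.66 on the log2 scale (SE 0.14), with an adjusted p of 0.0222 (edgeR quasi-likelihood, Benjamini-Hochberg over 16262 genes). It was the only 1 of 33 tested members to pass, where 4.05% of all genes tested passed (2.52% higher, 1.53% lower). The WT level was lower in 3 of 3 libraries matched by number. The call was lost when WT 1-1, WT 2-2, Ctr 1-1 or Ctr 2-2 was left out (edgeR adjusted p 0.0634 to 0.0965) and in batch 2 alone (log2 difference -0.68, edgeR adjusted p = 0.206).

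Against WT the K3Q construct gave higher MYC, 263 ± 42.3 CPM with K3Q and 151 ± 8.20 CPM with WT (SD, n = 3 each). The log2 difference was 0.83 (SE 0.14, edgeR adjusted p = 0.00947), higher in 3 of 3 matched libraries. It did not pass without K3Q 1-1 (edgeR adjusted p = 0.0662) or in batch 2 alone (0.209). K3Q against K3R gave a log2 difference of 0.58 (SE 0.14, edgeR adjusted p = 0.0968), K3R against Ctr -0.40 (0.14, 0.152), and K3R against WT 0.26 (0.14, 0.999). None of these 3 passed. When same-numbered H1299 libraries were paired through a block term, MYC passed in K3Q against K3R (0.57, edgeR adjusted p = 0.00908) and in K3R against Ctr (-0.39, 0.033). K3Q against Ctr gave 0.17 (SE 0.14, edgeR adjusted p = 0.709), and did not pass in either fit. WT, K3R and K3Q were compared with the same 3 Ctr libraries, so these values are not independent of each other.

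In A549 MYC measured 127, 154 and 256 CPM with WT, 118, 149.5 and 249 CPM with K3R, 108, 149 and 150.2 CPM with K3Q and 127, 139 and 214 CPM with Ctr. All 4 groups overlapped. Library 2-2 was the highest of each group, by a wide step in WT, K3R and Ctr and by a narrow margin in K3Q, whose libraries 1-2 and 2-2 are the near-identical pair. Against Ctr the log2 difference was 0.15 (SE 0.23) for WT, with an edgeR adjusted p of 0.937, and its direction turned when WT 2-2 or Ctr 1-2 was left out. Neither K3R nor K3Q passed (edgeR adjusted p 1 and 0.758). The WT difference in A549 exceeded that in H1299 by 0.81 on the log2 scale (SE 0.28), a test of the difference between lines that did not pass (edgeR adjusted p = 0.284). With the block term it did (0.78, edgeR adjusted p = 0.0207), although A549 K3Q 2-2, not taken as paired by number, enters that fit.

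Of MYC's relatives, MYCN, known chiefly from neural tumours, was at or near 0 in every library (at most 0.129 CPM). MYCL measured 3.59, 2.26 and 1.36 CPM in WT, 3.96, 2.70 and 0.902 CPM in K3R, 4.56, 1.92 and 2.67 CPM in K3Q and 3.14, 3.01 and 1.44 CPM in Ctr A549 cells. In H1299 it measured 0.782, 0.468 and 0.885 CPM in WT, 0.558, 0.614 and 0.695 CPM in K3R, 0.852, 1.06 and 0.657 CPM in K3Q and 1.06, 0.331 and 0.581 CPM in Ctr cells. MYCL was low in both lines, its A549 Ctr libraries were all above those of H1299 Ctr, and no construct changed it past the threshold. MAX, the partner all 3 MYC proteins need, measured 36.6, 40.2 and 46.6 CPM in WT, 39.8, 36.8 and 48.7 CPM in K3R, 39.03, 40.9 and 38.8 CPM in K3Q and 39.3, 41.8 and 49.8 CPM in Ctr A549 cells. H1299 values were 47.8, 48.8 and 53.8 CPM in WT, 54.1, 51.9 and 57.9 CPM in K3R, 53.8, 55.1 and 61.1 CPM in K3Q and 55.8, 45.1 and 58.3 CPM in Ctr cells. MAX did not pass in any comparison of constructs, and the direction of its small differences changed with the processing, as it did for MYCL.

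H1299 K3Q against WT was the comparison of constructs with the most members past the threshold, 4 of 33, all higher with K3Q. Among all genes tested 3.46% passed, 1.41% higher and 2.05% lower. Beside MYC these were NOC4L, NOB1 and CAD. NOC4L, the human counterpart of a yeast protein of small subunit assembly, measured 50.4, 66.4 and 48.1 CPM with K3Q, against 34.4, 43.2 and 40.4 CPM with WT (log2 difference 0.51, SE 0.13, edgeR adjusted p = 0.0438). NOB1 cuts the end of the small subunit's ribosomal RNA. It measured 82.04, 71.99 and 72.6 CPM with K3Q, against 59.7, 54.6 and 52.8 CPM with WT (log2 difference 0.47, SE 0.11, edgeR adjusted p = 0.0372). CAD, the enzyme of the opening steps of pyrimidine synthesis, measured 252, 263 and 251 CPM with K3Q, against 189, 195 and 215 CPM with WT (log2 difference 0.38, SE 0.09, edgeR adjusted p = 0.0363). In each of the 3 genes every K3Q library was above every WT library. Means were 54.98 ± 9.94 CPM with K3Q and 39.3 ± 4.47 CPM with WT for NOC4L, 75.5 ± 5.63 CPM with K3Q and 55.7 ± 3.57 CPM with WT for NOB1, and 255 ± 6.56 CPM with K3Q and 199.7 ± 13.5 CPM with WT for CAD (SD, n = 3 each).

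These 3 calls were close to the threshold. CAD and NOC4L kept theirs only when K3Q 2-2 was the library left out, NOB1 in none of the 6 leave-one-out fits, and none of the 3 passed without a batch term. In all, 0 members passed without K3Q 1-1 and 1, MYC, without K3Q 1-2, WT 1-1, WT 1-2 or WT 2-2. The fit with replicate number as a block called 11 members, all higher with K3Q: MYC, NOC4L, NOB1, CAD, RRP9, TCOF1, BOP1, RRP12, NOLC1, FBL and PES1. It called 1946 of all genes, against 563 without the block. Members' edgeR adjusted p lay between 0.000424 and 0.028.

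The 7 genes added by the block had edgeR adjusted p of 0.0509 (RRP12) to 0.178 (FBL) without it. RRP12, a factor for export of maturing subunits, measured 113, 107 and 107 CPM with K3Q, against 82.3, 89.4 and 86.1 CPM with WT. TCOF1, the treacle protein of ribosomal RNA transcription, measured 308, 304 and 292 CPM with K3Q, against 269, 248 and 199 CPM with WT. RRP9, a protein of the U3 snoRNP, measured 79.3, 76.9 and 57.5 CPM with K3Q, against 54.4, 54.7 and 48.2 CPM with WT. All 3 groups of K3Q values lay above the WT values without overlap. PES1, which works in large subunit maturation with BOP1 and WDR12, likewise did not overlap, at 183, 185 and 161 CPM with K3Q and 144, 146 and 140.4 CPM with WT. BOP1 measured 347, 375 and 254 CPM with K3Q and 254, 263 and 237 CPM with WT, and its groups overlapped through K3Q 2-2. WDR12 stayed at a log2 difference of 0.10 (SE 0.10).

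**Figure D2:**
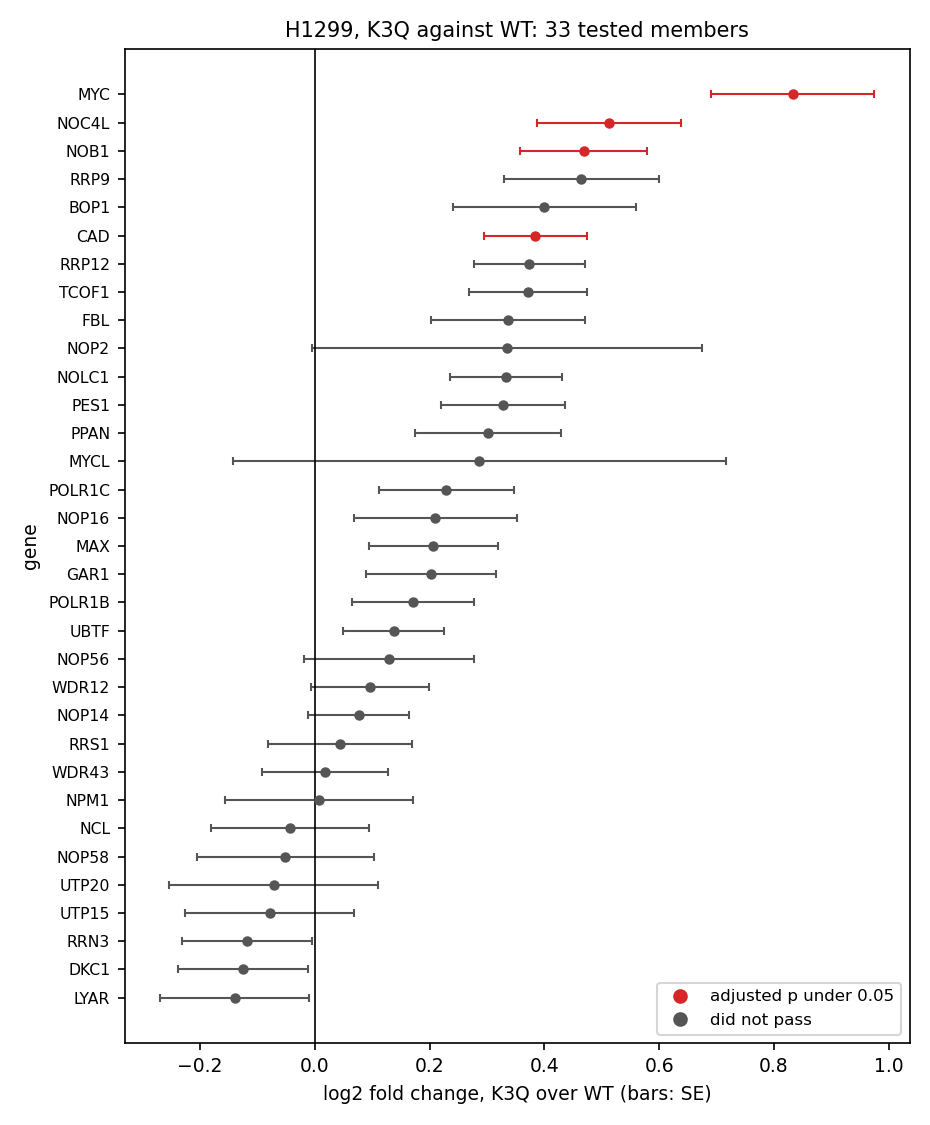
Log2 fold change of the 33 tested members in H1299, K3Q over WT, on the x axis, one gene per row on the y axis, with bars for the SE and red for adjusted p under 0.05. MYC stands at 0.83, the 3 other genes that passed lie between 0.38 and 0.51, and the lowest value is -0.14 for LYAR.

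By role, the share of genes higher with K3Q than with WT varied. In large subunit processing 7 of 7 genes were higher with K3Q, with a median log2 difference of 0.30. In small subunit processing it was 6 of 8 (median 0.23), and in RNA polymerase I transcription 4 of 5 (median 0.17). Among the nucleolar chaperones 2 of 4 were higher. NOLC1, a chaperone of snoRNPs, gave 0.33 (SE 0.10), whereas NPM1 and NCL, abundant nucleolar proteins, gave 0.01 (SE 0.16) and -0.04 (SE 0.14). Of the box C/D snoRNP proteins, FBL, the methyltransferase, gave 0.34, NOP56 0.13 and NOP58 -0.05. Over the 30 genes of ribosome production 23 were higher and the median was 0.19, against 8199 of 16262 genes and a median of 0.00 over all genes tested. The direction was not particular to K3Q. K3R lay above WT in 26 of the same 30 genes (median 0.09), and in 7 of 7 of large subunit processing (median 0.17). Both comparisons share the WT libraries, and the K3R counts were not set against those over all genes.

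Other genes of the pathway, listed with earlier results of these data known, gave calls in 4 of 7 lists in the same comparison, where 3.46% of all genes passed. Of 34 further small subunit genes 2 rose with K3Q, EMG1 (0.40, edgeR adjusted p = 0.0306) and NAT10 (0.41, 0.0235), both enzymes that modify ribosomal RNA. Of 37 further large subunit genes 1 rose, NLE1, at 50.4 ± 7.18 CPM with K3Q and 31.7 ± 2.83 CPM with WT (SD, n = 3 each; log2 difference 0.70, edgeR adjusted p = 0.0116). None of 13 further RNA polymerase I genes passed, nor any of 13 snoRNP assembly genes. At an unadjusted p under 0.05 there were 4 and 6 in the edgeR fit, not set against the count over all genes. Of 28 other textbook MYC targets 5 rose and none fell, the largest being SLC7A5, an amino acid transporter, with 1102 ± 301 CPM for K3Q and 516 ± 175 CPM for WT. Its log2 difference was 1.13 (edgeR adjusted p = 0.0444). The others were TERT (0.77), SHMT2 (0.78), CDK4 (0.46) and IMPDH2 (0.41). Of 18 MYC network genes 1 rose, MXI1, a MYC antagonist that also pairs with MAX (0.68, edgeR adjusted p = 0.0414). None of the 24 proliferation markers passed in this comparison, 13 were higher and 11 lower, with a median log2 difference of 0.06.

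With WT, the other members in H1299 lay mostly a little below Ctr without passing. Of the 30 genes of ribosome production 23 were lower, with a median log2 difference of -0.10, against 8427 of 16262 genes and a median of -0.01 over all genes tested. The lowest p among them belonged to NOLC1, which measured 257, 256 and 224 CPM with WT and 324, 311 and 298 CPM with Ctr, without overlap (log2 difference -0.36, SE 0.10, edgeR adjusted p = 0.0607). Next came GAR1, a core protein of the snoRNPs that guide pseudouridine formation, with 65.8, 46.3 and 42.2 CPM for WT and 73.1, 60.3 and 52.6 CPM for Ctr (log2 difference -0.30, SE 0.11, edgeR adjusted p = 0.18). With the replicate number as a block NOLC1 and GAR1 passed (edgeR adjusted p = 0.0123 and 0.0366), so that 3 members were called, among 1585 of all genes. Outside the members, MXI1 (-0.62, edgeR adjusted p = 0.0558), EMG1 (-0.33, 0.0573) and NLE1 (-0.46, 0.0588) came closest to passing among the pathway lists.

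With K3R, none of 33 members passed against Ctr in the edgeR fit, where 3.25% of all genes did, and DESeq2 called 0. An unadjusted edgeR p under 0.05 was found for 3 members (MYC, NOLC1 and GAR1) and for 2867 of 16262 genes. NOLC1 measured 273, 275 and 236 CPM and GAR1 64.03, 52.4 and 41.6 CPM with K3R (log2 differences -0.27 and -0.26). The 30 genes of ribosome production had a median of -0.01. K3Q against Ctr likewise gave 0 of 33 by edgeR and by DESeq2, and 0.0615% of all genes passed by edgeR. At an unadjusted edgeR p under 0.05 there were 4 members and 1580 of 16262 genes. NOC4L (0.34, SE 0.13), FBL (0.36, SE 0.13) and RRP12 (0.24, SE 0.10) had the lowest p, with edgeR adjusted p of 0.394, 0.408 and 0.443. FBL measured 1027, 919.5 and 669 CPM with K3Q and 833, 674 and 562 CPM with Ctr, with library 1-1 the highest and library 2-2 the lowest in both groups. The 30 genes had a median of 0.09, 20 of them higher with K3Q. In biological replicate 1 alone 8 members passed, 5 higher and 3 lower, among 2028 of all genes.

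Between the mutants and WT, K3R gave 0 of 33 members by edgeR and DESeq2, as it gave 0 of 16262 genes (0%) by edgeR. PPAN had the lowest p and the only unadjusted p under 0.05, with 17.5, 14.6 and 14.99 CPM for K3R and 13.6, 12.02 and 11.6 CPM for WT (log2 difference 0.34, SE 0.13, edgeR adjusted p = 0.999). RRP9 (0.28) and NOC4L (0.26) followed, and in all 3 genes every K3R library lay above every WT library. K3Q against K3R gave 0 of 33 in the edgeR fit, where 0.449% of all genes passed. DESeq2 called 2 (MYC and CAD), among 337 of all genes. At an unadjusted edgeR p under 0.05 there were 7 members, not set against the count over all genes. After MYC, CAD came lowest in p, with 252, 263 and 251 CPM for K3Q and 212, 208 and 198 CPM for K3R (log2 difference 0.34, SE 0.09, edgeR adjusted p = 0.119). It passed with the replicate number as a block (edgeR adjusted p = 0.0281). NOB1 gave 0.32 (edgeR adjusted p = 0.25).

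**Figure D3:**
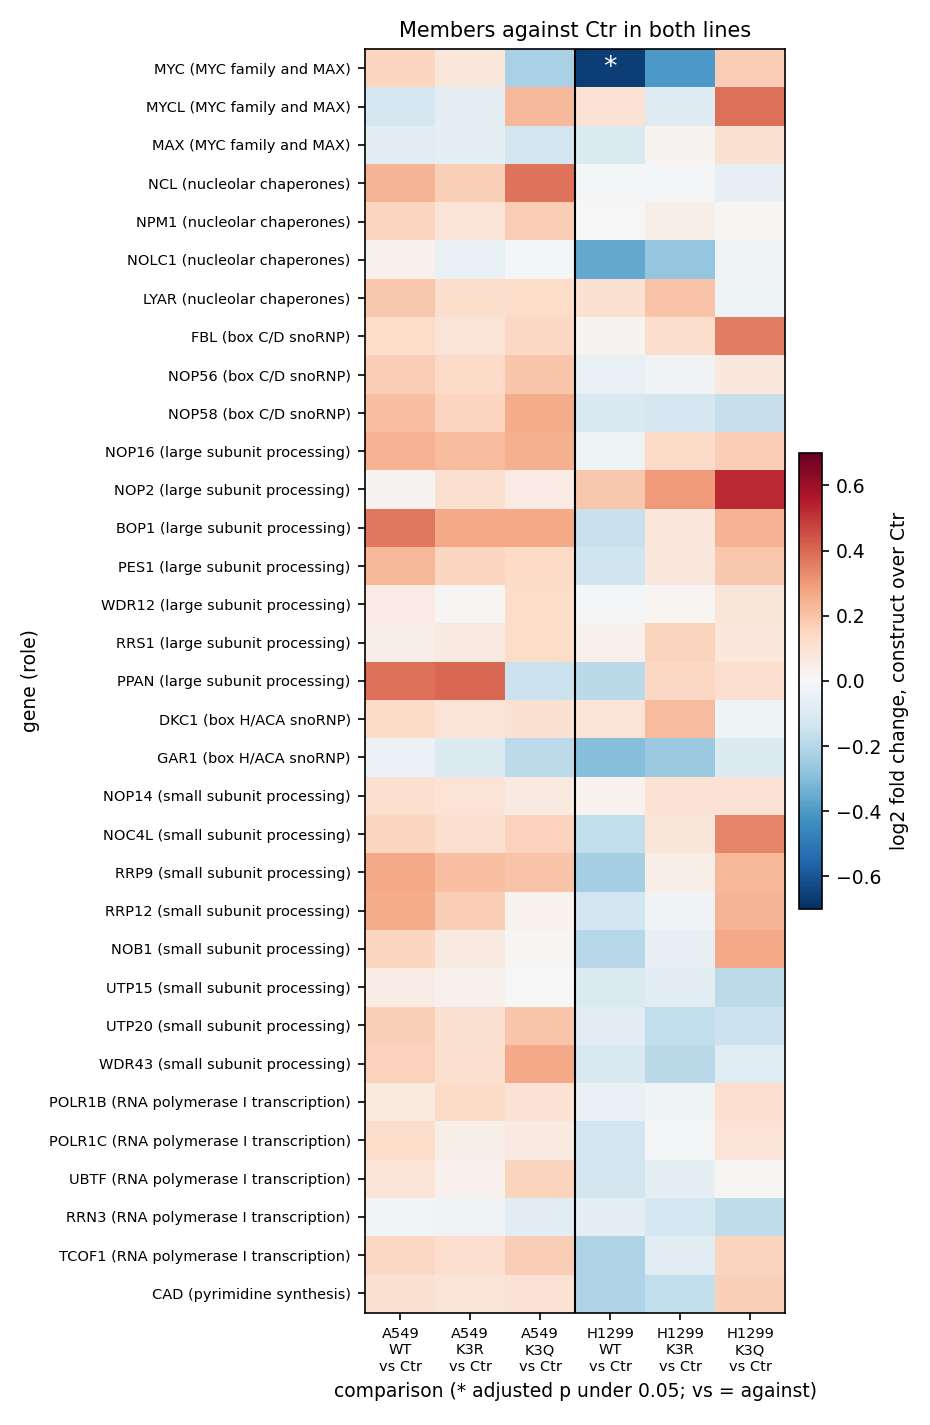
Log2 fold change against Ctr (colour, red for higher and blue for lower with the construct) for the 33 tested members, grouped by role down the y axis, with WT, K3R and K3Q of A549 and then of H1299 along the x axis. MYC with WT in H1299 (-0.66) carries the single asterisk for adjusted p under 0.05.

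In A549 no member passed in any comparison of constructs. The edgeR fit called 0 of 33 for WT, K3R and K3Q against Ctr, where 0.105%, 0.118% and 0.0248% of 16120 genes passed. An unadjusted edgeR p under 0.05 was found for 2, 0 and 0 members, and for 1279, 1115 and 1390 of 16120 genes. DESeq2 called 0 members in each. Most of the genes of ribosome production nevertheless lay slightly above Ctr. For WT 28 of 30 were higher (median log2 difference 0.15), for K3R 27 (0.11) and for K3Q 25 (0.13), against 8048, 8045 and 7995 of 16120 genes. The 3 comparisons share the Ctr libraries, so a low Ctr library enters all 3. The 24 proliferation markers also lay mostly above Ctr, with medians of 0.19 for WT, 0.15 for K3R and 0.31 for K3Q and 23, 23 and 24 of 24 higher than Ctr. In Ctr 2-2 the median of these markers was -0.69 relative to the Ctr mean, and 0 of 24 were above that mean. The part of proliferation in the A549 differences was not tested.

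RRP9 had the lowest p of the members for all 3 constructs in A549, with 49.7, 77.6 and 63.2 CPM in WT, 46.6, 70.9 and 67.1 CPM in K3R, 40.5, 75.2 and 69.4 CPM in K3Q and 43.04, 58.7 and 56.6 CPM in Ctr. The log2 differences were 0.26 (SE 0.11) for WT, 0.21 for K3R and 0.20 for K3Q, with edgeR adjusted p of 0.562, 0.812 and 0.637. The groups overlapped, since library 1-1 was the lowest in each. PES1 measured 173, 241 and 205 CPM with WT and 149, 198 and 181 CPM with Ctr (0.23, edgeR adjusted p = 0.608). RRP12 measured 100.2, 166 and 198 CPM with WT and 82.4, 141 and 167 CPM with Ctr (0.26, 0.635). Both genes were higher with WT in 3 of 3 matched libraries while the unmatched values overlapped. For K3R the next were PPAN, a large subunit factor, at 6.93, 8.24 and 15.5 CPM with K3R and 5.41, 7.58 and 10.04 CPM with Ctr (0.40), and NOP16 at 43.4, 66.6 and 55.9 CPM with K3R and 39.4, 57.2 and 44.8 CPM with Ctr (0.22). For K3Q they were GAR1 at 31.8, 39.6 and 34.1 CPM with K3Q and 38.5, 39.3 and 42.1 CPM with Ctr (-0.18), and NOP16 at 35.2, 67.6 and 69.7 CPM with K3Q (0.25). GAR1 was the member with the lowest p among those below Ctr.

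Among the A549 constructs themselves edgeR called 0 of 33 members for K3R against WT, K3Q against WT and K3Q against K3R, with 0 at an unadjusted p under 0.05 and 0 by DESeq2 in each. Of all 16120 genes 0%, 0.0062% and 0.0062% passed, and 116, 1041 and 708 had an unadjusted edgeR p under 0.05. PPAN led both K3Q comparisons, with 5.60, 8.79 and 5.91 CPM for K3Q, 6.34, 10.8 and 13.3 CPM for WT and 6.93, 8.24 and 15.5 CPM for K3R. Its log2 differences were -0.54 (SE 0.25) against WT and -0.55 (SE 0.25) against K3R, and library 2-2 made up most of the gap. K3Q 2-2 belongs to the near-identical pair and was not taken as paired by number with the other 2-2 libraries. Next against WT came RRP12 (-0.23) and NOB1 (-0.14), and against K3R MYC (-0.31) and RRP12 (-0.15). For K3R against WT, NOB1 (-0.09), POLR1C (-0.09) and PES1 (-0.08) had the lowest p. NOB1 measured 71.2, 104 and 110.0 CPM with K3R and 81.02, 106 and 112 CPM with WT, and POLR1C, a subunit shared by RNA polymerases I and III, measured 20.4, 27.7 and 30.5 CPM with K3R and 24.6, 29.3 and 28.3 CPM with WT. Both overlapped.

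No member's response to a construct differed between the lines past the threshold. The edgeR interaction test over all 24 libraries called 0 of 33 for WT, K3R and K3Q, where 0.735%, 0.475% and 0.0166% of 18102 genes passed, and DESeq2 called 0 in each. An unadjusted p under 0.05 was found for 7, 0 and 0 members, not set against the count over all genes. For WT the lowest p after MYC belonged to RRP9 at 0.49 (SE 0.18, edgeR adjusted p = 0.33), followed by NOLC1 at 0.39 (0.15, 0.356). RRP9 was above Ctr in A549 (0.26) and below it in H1299 (-0.23). For K3R the lowest p belonged to CAD (0.26), MYC (0.48) and NOLC1 (0.21), and for K3Q to NOB1 (-0.26), WDR43 (0.35) and NOP58 (0.42). WDR43 of the small subunit processome measured 135, 179.7 and 126 CPM in WT, 116, 188 and 129 CPM in K3R, 111, 191 and 181 CPM in K3Q and 123, 146 and 126 CPM in Ctr A549 cells. NOP58 of the box C/D snoRNPs measured 96.4, 121 and 87.7 CPM in WT, 80.7, 129.9 and 85.1 CPM in K3R, 75.3, 123 and 122 CPM in K3Q and 87.4, 97.9 and 78.2 CPM in Ctr A549 cells. Both were lower in library 1-1 than in 1-2 of each A549 group.

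The lines differed from each other in more members than any construct changed. Between the Ctr groups 12 of 33 passed, 4 higher and 8 lower in A549, where 57% of 16124 genes passed (29.3% higher, 27.7% lower). The share among members was thus below that among all genes. LYAR, a nucleolar zinc finger protein, showed the largest gap, with 20.5, 30.5 and 25.96 CPM in A549 Ctr and 113, 123 and 89.8 CPM in H1299 Ctr (log2 difference -2.11, SE 0.19, edgeR adjusted p = 3.36e-05). NOP14, a small subunit factor, measured 53.2, 75.3 and 60.4 CPM in A549 Ctr and 140.0, 121 and 125 CPM in H1299 Ctr (-1.05, edgeR adjusted p = 0.000843). GAR1 was lower too (-0.64). RNA polymerase I subunits were lower in A549 as well: POLR1C measured 21.3, 27.6 and 26.99 CPM in A549 Ctr and 53.02, 46.1 and 42.1 CPM in H1299 Ctr (-0.91), and POLR1B, the second largest subunit, 57.6, 65.8 and 73.5 CPM in A549 Ctr and 98.3, 107 and 98.1 CPM in H1299 Ctr (-0.64). PPAN measured 5.41, 7.58 and 10.04 CPM in A549 Ctr and 13.6, 13.5 and 14.7 CPM in H1299 Ctr (-0.91). NPM1 (-0.64) and FBL (-0.61) completed the lower genes, all without overlap between the lines and with edgeR adjusted p of at most 0.0243.

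Higher in A549 were MYCL, with 3.14, 3.01 and 1.44 CPM in A549 Ctr and 1.06, 0.331 and 0.581 CPM in H1299 Ctr (log2 difference 1.97, SE 0.46, edgeR adjusted p = 0.00561), and RRN3, which recruits RNA polymerase I to its promoter, with 75.3, 93.9 and 116 CPM in A549 Ctr and 43.2, 51.3 and 46.9 CPM in H1299 Ctr (0.98, edgeR adjusted p = 0.000736). NOC4L measured 51.2, 76.3 and 60.1 CPM in A549 Ctr and 44.1, 45.8 and 40.8 CPM in H1299 Ctr (0.49). NOB1 measured 76.1, 99.1 and 94.96 CPM in A549 Ctr and 65.8, 55.2 and 68.7 CPM in H1299 Ctr (0.49). These 4 genes, too, did not overlap. MYC itself was lower in A549 Ctr (160.0 ± 47.4 CPM) than in H1299 Ctr (235 ± 45.9 CPM; SD, n = 3 each), which did not pass (log2 difference -0.58, SE 0.23, edgeR adjusted p = 0.0524). It did pass by DESeq2 (adjusted p = 0.0372), with RLE scaling, with no low-count filter, with the replicate block, in biological replicate 1 alone, and without A549 Ctr 2-2 or H1299 Ctr 1-2, always lower in A549. Of the 24 proliferation markers 3 were higher and 9 lower in A549, with a median log2 difference of -0.56. Their part in the line differences was not tested.

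**Figure D4:**
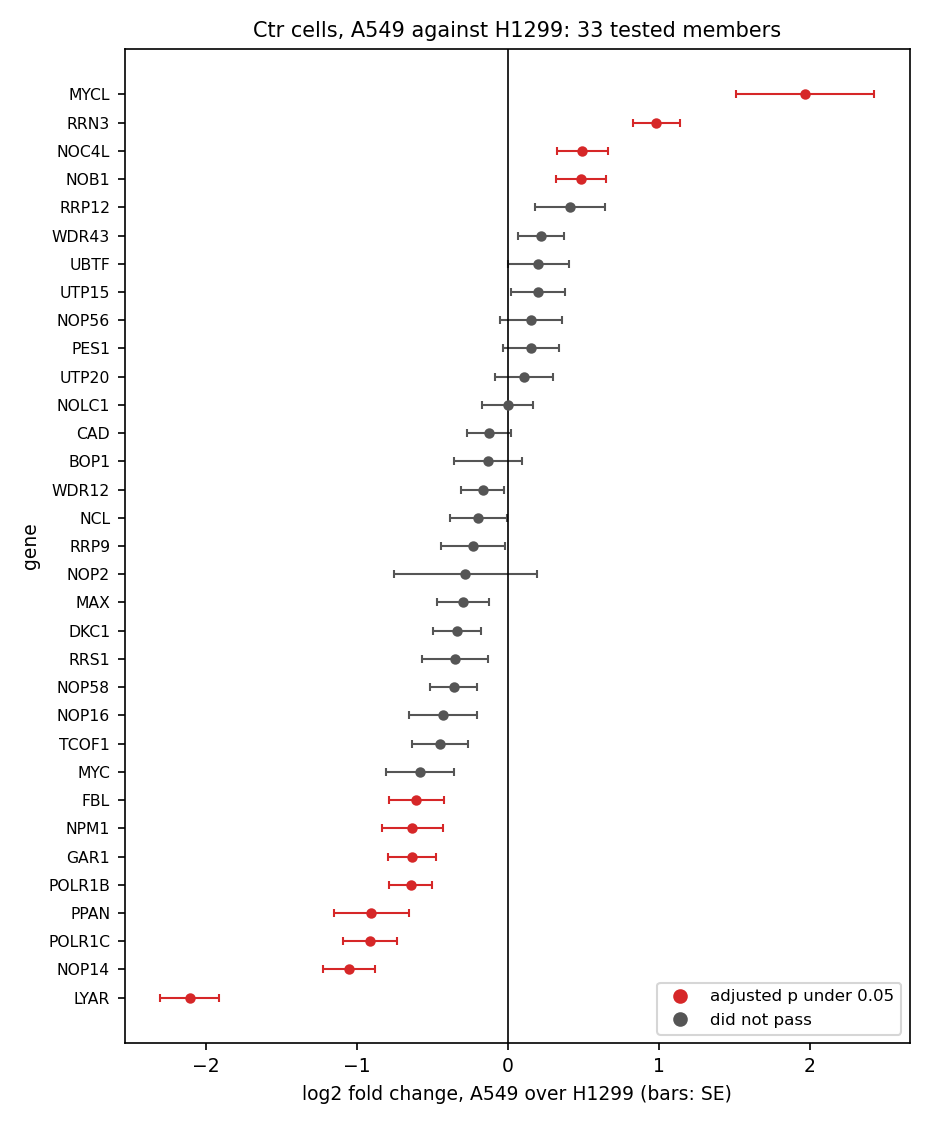
Log2 fold change of the 33 tested members between the Ctr groups, A549 over H1299, on the x axis, one gene per row on the y axis, with bars for the SE and red for adjusted p under 0.05. The 4 higher genes lie between 0.49 and 1.97 and the 8 lower genes between -2.11 and -0.61.

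The 2 biological replicates of H1299 in batch 2 also differed. There, library 2-2 against 1-2 over the 4 constructs gave 8 of 33 members past the threshold, all lower in replicate 2, where 12.4% of 15227 genes passed (7.55% higher, 4.89% lower). NPM1 measured 1624 ± 126 CPM in replicate 2 and 2143 ± 79.5 CPM in replicate 1 (SD, n = 4 each), without overlap (log2 difference -0.39, SE 0.07, edgeR adjusted p = 0.00549). The 4 values of each replicate are those of the 4 constructs, so the SD includes differences between constructs. Replicate 2 was set against replicate 1 only, so neither SD nor p-value measures the spread between biological replicates. NOP56, a core box C/D protein, measured 241 ± 18.002 CPM in replicate 2 and 308 ± 15.5 CPM in replicate 1 (-0.35, edgeR adjusted p = 0.0105), and BOP1 238 ± 12.5 CPM in replicate 2 and 315 ± 46.4 CPM in replicate 1 (-0.39, 0.0112). The other genes were UTP20, FBL, NCL, NOP58 and NOP16, so that all 3 box C/D proteins were among the 8. Of the 24 proliferation markers 14 fell and none rose in replicate 2, with a median log2 difference of -0.31, and their part in the result was not tested. The count of 8 became 0 without either K3R library or either Ctr library, where 423 to 689 of all genes passed. It became 13 without K3Q 2-2, where 3314 of all genes passed. Without either WT library 4 passed, NPM1, BOP1 and UTP20 as lower and MYC as higher. These were among 1140 genes without WT 1-2 and 1142 without WT 2-2. MYC was not past the threshold over all 8 libraries (0.27, edgeR adjusted p = 0.12) and passed as higher without WT 1-2 (0.41, 0.0283), without WT 2-2 (0.41, 0.0272) and with no low-count filter (0.26, 0.0403).

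In A549 the same comparison over all constructs called 0 of 33 members by edgeR, where 0.00663% of 15087 genes passed. DESeq2 called 8, among 1805 of all genes. At an unadjusted edgeR p under 0.05 there were 12 members, not set against the count over all genes. Without the near-identical K3Q pair, or without either library of it, edgeR called 17, of which 13 were lower and 4 higher in replicate 2. Without the pair 5500 of all genes passed. NCL gave -0.64 (edgeR adjusted p = 9.86e-05) and NPM1 -0.50 (0.000228), while MYC gave 0.71 (6.62e-05), MAX 0.30, RRP12 0.29 and PPAN 0.55, all on the log2 scale. Over all 4 constructs 24 of 33 members were lower in replicate 2, and MYC was the highest at 0.54 (edgeR adjusted p = 0.0614). All 24 proliferation markers were lower in replicate 2 over the 4 constructs (median -0.56), none passing in that fit.

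**Figure D5:**
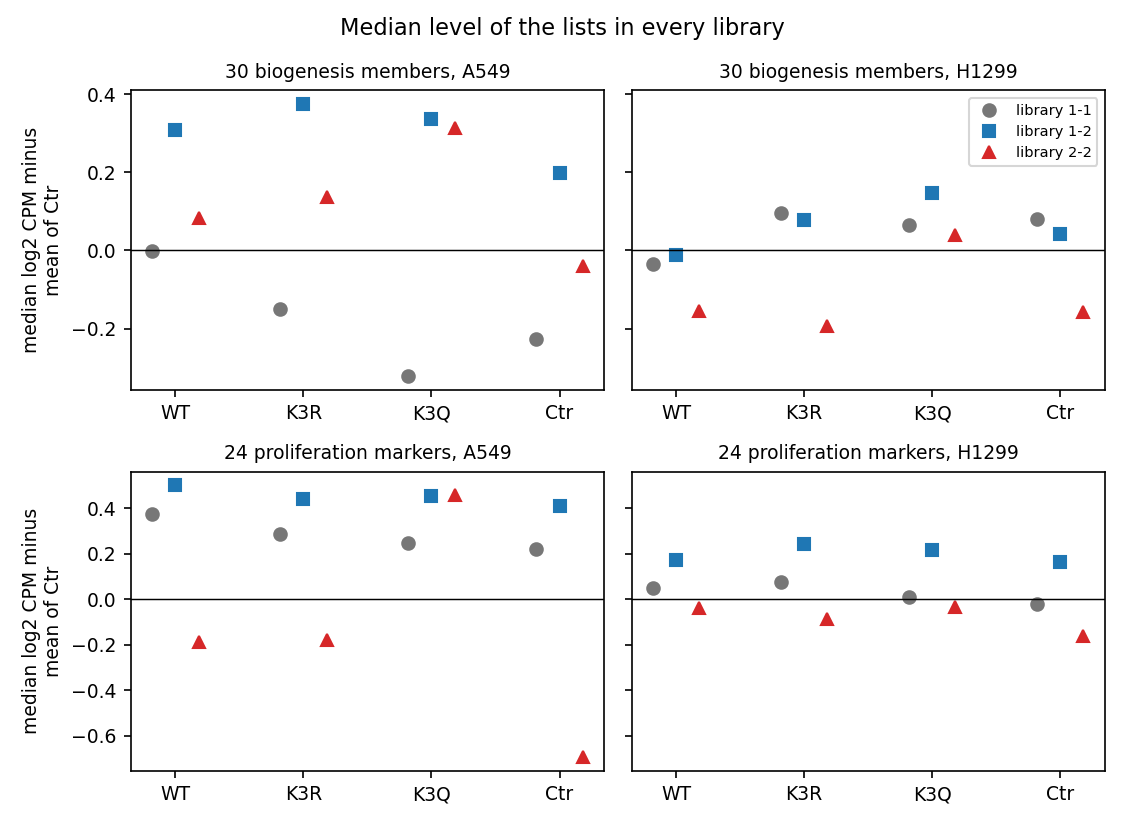
Median log2 CPM relative to the mean of Ctr, on the y axis, of the 30 genes of ribosome production (top) and the 24 proliferation markers (bottom) for each library of A549 (left) and H1299 (right), by construct on the x axis. In A549 library 1-2 is above 1-1 in both lists for every construct, and proliferation markers in library 2-2 run from -0.69 in Ctr to 0.46 in K3Q.

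Per library, the median of the 30 genes in A549 ran from -0.32 in K3Q 1-1 to 0.37 in K3R 1-2, relative to the Ctr mean on the log2 scale. In all 4 constructs library 1-1 was the lowest and library 1-2 the highest, and these steps between libraries were wider than the median differences between constructs. In H1299 the medians were narrower, from -0.19 in K3R 2-2 to 0.15 in K3Q 1-2. Library 2-2 was the lowest of each H1299 construct.

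A few levels are limited by gene overlap in the annotation (GENCODE 29, GRCh38). NOP2, an enzyme that methylates ribosomal RNA, was counted at 0.439 to 1.62 CPM over the 24 libraries, and 54.4% of its exonic bases are shared with another gene on the same strand. PPAN shares 59.8% of its exonic bases with P2RY11 and the readthrough gene PPAN-P2RY11. Reads in such stretches cannot be assigned to 1 gene, so the levels of NOP2 and PPAN are uncertain. NOB1 shares 20.2%, NOP16 20%, POLR1C 18.2% and NOP14 17.1% of exonic bases with genes on the opposite strand. The strand setting of the counting is not given in the sources used here. MYC (chromosome 8), CAD (chromosome 2, 27217390 to 27243943) and NOC4L (chromosome 12, 132144448 to 132152473) share no exonic base with another gene. NPM1 and RRN3 have near-identical pseudogene copies, between which the counting may have split reads.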

How the data were processed

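RNA-seq reads were deposited by the authors as raw counts per gene, and FastQC, cutadapt, STAR and featureCounts with genome build GRCh38 are listed in the submitters' processing notes. Not given in the sources used here are the order of these steps, the annotation release, the strand setting and the handling of multi-mapping reads. Lines, constructs, biological replicates and batches come from the labels. Total counts ran from 14943189 to 22856407 over the 24 libraries.

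Each line (12 libraries) was fitted in R 4.3.3 with edgeR 4.0.16: filterByExpr, TMM scaling and the quasi-likelihood test with construct and batch as terms. Interactions were fitted over 24 libraries, the Ctr groups of both lines over 6, and biological replicate 2 against 1 over the 8 libraries of batch 2 of each line with construct as a term. P-values were adjusted by Benjamini-Hochberg over all genes tested, and an adjusted p under 0.05 was taken as past the threshold. Each SE is the log2 fold change divided by the square root of the edgeR F statistic. CPM were computed from the counts with TMM factors. RNA of constructs with SIRT6 and of the endogenous gene was counted together as SIRT6.

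Members and lists were chosen with earlier results of these data known. Named genes were MYC, MYCN, MYCL and MAX, every member past the threshold in a construct comparison (or the 3 of lowest p where none was), and the largest changes or lowest p in the others. Data were simulated for all 12 libraries of each line, with genes changed in WT and no batch or replicate effect. For H1299 WT against Ctr, 30 of 100 genes changed 1.5-fold and 85 of 100 changed 3-fold were recovered. There were 11 false calls in 16062 unchanged genes. For A549 WT against Ctr these were 22, 76 and 8 of 15920. Equal replicate numbers were taken as paired where the deviations of same-numbered libraries from their group means correlated in every pair. That was taken to hold in H1299 (r of 0.1346 or more) and among WT, K3R and Ctr of A549 (0.3739 or more), and not for A549 K3Q 2-2 (0.0568 to 0.1181). No cut-off was stated. Batch was not removed first, so the step between batches 1 and 2 enters these correlations. They therefore cannot show pairing by culture, and the block fits are alternatives only. Alternatives were DESeq2 1.42.0, RLE scaling, no low-count filter, no batch term, a replicate block, the near-identical A549 K3Q pair summed, each library left out, and, chosen after seeing the data, batch 2 alone, biological replicate 1 alone and the H1299 replicate comparison without K3Q.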

Additional observations from a re-analysis of the deposited data

Results flagged for a closer look

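For 9 combinations of a member and a construct, every A549 library lay above its number-matched Ctr library and every H1299 library below its own. The pattern was not counted over all genes, so it cannot be read as particular to the members. Some margins were small: MYC in A549 measured 127.1 CPM in WT 1-1 and 126.7 CPM in Ctr 1-1. None of the differences between lines passed the edgeR interaction test, which was adjusted over 18102 genes. MYC with WT differed from Ctr by 0.15 in A549 and -0.66 in H1299, which differ by 0.81 (SE 0.28, adjusted p = 0.284), all on the log2 scale. RRP9 with WT gave 0.26 in A549 and -0.23 in H1299, which differ by 0.49 (SE 0.18, adjusted p = 0.33). NOB1, the small subunit endonuclease, gave 0.15 in A549 and -0.20 in H1299, which differ by 0.35 (SE 0.14, adjusted p = 0.372) with WT. CAD with WT gave 0.10 in A549 and -0.22 in H1299, which differ by 0.32 (SE 0.13, adjusted p = 0.413), and with K3R 0.09 in A549 and -0.17 in H1299, which differ by 0.26 (SE 0.13, adjusted p = 0.656). NOC4L with WT gave 0.15 in A549 and -0.17 in H1299, which differ by 0.32 (SE 0.17, adjusted p = 0.592). NOP58 with WT gave 0.21 in A549 and -0.11 in H1299, which differ by 0.32 (SE 0.26, adjusted p = 0.802). WDR43 with WT gave 0.16 in A549 and -0.10 in H1299, which differ by 0.27 (SE 0.22, adjusted p = 0.797). UTP20, a scaffold of the small subunit processome, gave 0.10 in A549 and -0.17 in H1299, which differ by 0.27 (SE 0.29, adjusted p = 0.928) with K3R. The WT values share the Ctr libraries with the K3R values in each line.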

How the results depend on the processing

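For MYC and the other members named by rule in each comparison, 980 values were computed under alternatives. Of these 876 kept their direction and their side of the threshold, 65 lost and 31 gained the call, and 8 changed direction. These 8 were uncalled values in A549. MYCL and MAX were tallied apart and changed direction in 34 and 28 of 217 values each in the comparisons of constructs, never past the threshold there. With single libraries left out, MYC ranged from -0.085 (without WT 2-2) to 0.31 for WT against Ctr, from -0.17 (without K3R 2-2) to 0.24 for K3R against Ctr, and from -0.32 to 0.17 (without WT 2-2) for K3R against WT, on the log2 scale. POLR1C for K3R against WT was 0.010 in batch 2 alone, and RRP12 for K3Q against K3R was 0.0010 in biological replicate 1 alone. The cause was not tested.

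The number of members called in H1299 depended on the fit. WT against Ctr gave 2 by DESeq2, 3 with the replicate block, 0 in batch 2 alone, 4 in biological replicate 1 alone, and 0 to 1 when a library was left out. Of all genes these fits called 1057, 1585, 90, 1493 and 245 to 495, in that order. K3R against Ctr gave 1 with no low-count filter, with the replicate block and in biological replicate 1 alone, among 1276, 1392 and 1203 of all genes. K3Q against Ctr gave 8 in biological replicate 1 alone, among 2028 of all genes. K3Q against WT gave 8 by DESeq2, 11 with the replicate block, 5 with no low-count filter (CAD not among them), 1 without the batch term, 0 in batch 2 alone, 15 in biological replicate 1 alone, and 0 to 4 when a library was left out. Of all genes these fits called 1123, 1946, 1258, 188, 8, 4033 and 41 to 849, in that order. Of the 15 in biological replicate 1 alone, NOP58 (-0.24), LYAR (-0.27) and DKC1 (-0.23) were lower with K3Q and the others higher. K3Q against K3R gave 1 with no low-count filter, 2 by DESeq2, 2 with the replicate block and 4 in biological replicate 1 alone. The counts over all genes were 650, 337, 526 and 1293. For the WT response between lines the counts were 1 with no low-count filter, 1 with the replicate block and 4 in biological replicate 1 alone, among 506, 434 and 581 of all genes. Replicate 2 against replicate 1 gave 0 to 13 in H1299 and 0 to 17 in A549 when a library was left out, and in A549 10 with no low-count filter, 8 by DESeq2 and 17 without the K3Q libraries. Of all genes these fits called 423 to 3314, 0 to 5524, 3063, 1805 and 5500, in that order. A549 Ctr against H1299 Ctr gave 9 to 14 when a library was left out and 9 to 18 over all alternatives, 16 with the replicate block. The counts over all genes were 7478 to 9549, 7376 to 10622 and 10118. The block changed no other member's call between constructs. Batch 2 alone has 2 libraries a group, and the labels do not say whether biological replicate 1 alone holds separate cultures.

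Depth limits NOP2, MYCL and MYCN, all at a few CPM or less. With 3 libraries a group, changes of 1.5-fold were mostly missed in simulated data.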

Other observations

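Beyond the 34 genes, other parts of the ribosome production machinery differed between the Ctr cells of the lines by the edgeR test, where 57% of all genes passed. Of 34 other small subunit genes 6 were higher and 9 lower in A549. PWP2, a processome protein, had the largest gap of these, 0.269 ± 0.188 CPM in A549 and 40.2 ± 7.73 CPM in H1299 (SD, n = 3 each; log2 difference -7.21, edgeR adjusted p = 2.27e-06), close to 0 in A549. Of 37 other large subunit genes 8 were higher and 15 lower, with EBNA1BP2 at 155 ± 21.6 CPM in A549 and 421 ± 101 CPM in H1299 (-1.46) and MDN1, a large remodelling ATPase, at 72.7 ± 14.5 CPM in A549 and 194 ± 15.5 CPM in H1299 (-1.45). Of 13 other RNA polymerase I genes 2 were higher and 6 lower, POLR1H having the largest gap (-1.30). Of 13 snoRNP assembly genes 3 were higher and 4 lower, with ZNHIT3 at 0.97 and COIL, the coilin of Cajal bodies, at -0.92. Of 28 other MYC targets 7 were higher and 7 lower. CCND2, a cyclin, had the largest gap of these, 0.280 ± 0.435 CPM in A549 and 3.51 ± 3.56 CPM in H1299 (-3.69), with overlapping libraries. SLC7A5 and SLC3A2, which together form an amino acid transporter, were both higher in A549, at 2.00 and 1.61. Of 18 MYC network genes 2 were higher and 3 lower, among them MLXIPL, a glucose-responsive factor (2.30), and the MYC antagonist MXD1 (-2.16).

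In H1299, 12.4% of all genes passed in replicate 2 against replicate 1 of batch 2 (7.55% higher, 4.89% lower). Of 37 large subunit genes 9 were lower, led by EBNA1BP2. It measured 317 ± 91.04 CPM in replicate 2 and 524 ± 114 CPM in replicate 1 (SD over the constructs, n = 4 each). Its log2 difference was -0.73 (edgeR adjusted p = 0.000161). Of 34 small subunit genes 9 were lower, led by LTV1 (-0.58), and 2 of 13 RNA polymerase I genes and 2 of 13 snoRNP assembly genes. None of these lists had a gene past the threshold in the other direction. Of 28 MYC targets 13 were lower and 2 higher, the higher pair being CCND2 and TFRC. Of 18 MYC network genes 4 were higher, PIM1 (1.01) and MNT (0.77) among them. The 14 proliferation markers that fell included MCM6 (-0.67) and CDC6 (-0.61), both of DNA replication, and their part in the other differences was not tested.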
